A study of Rattus norvegicus with 10 samples.

Results

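The cytoskeletal motor genes were examined in the left hippocampus of female TgF-344AD rats fed ordinary chow or chow with RG2833, an inhibitor of the histone deacetylases HDAC1 and HDAC3. The members were every gene symbol of the estimated count table that follows the naming of kinesins (Kif with a number), cytoplasmic dynein subunits (Dync1, Dync2 and Dynl) or unconventional myosins (Myo with a number). This rule found 60 genes among 17168, namely 29 kinesins, 13 dynein subunits and 18 myosins. After a filter on low counts, 49 of the 60 could be tested, made up of 22 kinesins, 12 dynein subunits and 15 myosins. All 10 rats were transgenic (genotype label Tg-AD), female and 11 months old when the tissue was taken. The untreated group held 5 rats, and the RG2833 group held 5 rats given 750 mg of RG2833 per kg of chow for 6 months from the age of 5 months. TgF344-AD rats are a transgenic model of Alzheimer's disease, and the transgenes are driven by a prion promoter. Since no group without the transgenes was analysed here, the comparison concerns the diet within transgenic animals.

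Kinesins and cytoplasmic dynein are motors that hydrolyse ATP to walk along microtubules. Most kinesins move toward the plus ends, which in an axon point away from the cell body, and cytoplasmic dynein carries cargo back toward the cell body. Unconventional myosins move along or tether membranes to actin filaments, for example in dendritic spines and at the plasma membrane. In neurons these motors deliver synaptic vesicle precursors, mitochondria, receptors and RNA granules, whereas other family members build cilia or separate chromosomes in dividing cells.

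Sequencing depth was similar in both groups, whereas some other library features separated them. Total estimated counts ranged from 8764266 to 11311673 per animal. Markers of excitatory neurons, including Prox1 of dentate granule cells and Wfs1 and Fibcd1 of pyramidal cells, were all measured (8 of 8 passed the filter). Their summed level was between 5033 and 7432 CPM in untreated and between 7453 and 8067 CPM in RG2833 animals, so the groups narrowly did not overlap. The largest parts were Nrgn, Slc17a7 and Camk2a (means 2992, 1626 and 824 CPM in untreated and 3294, 2081 and 1313 CPM in RG2833 animals). Of the 8, only Slc17a7 had groups that did not overlap. Only Camk2a passed the test between groups given below (adjusted p = 0.0459, edgeR). Prox1, Wfs1 and Fibcd1 overlapped, and Wfs1 ran from 63.9 to 588 CPM among untreated animals. CPM is the count divided by the scaled library total, in the field's usual unit. Ribosomal RNA loci took between 2.70 and 5.36% of counts in untreated and between 1.13 and 1.96% in RG2833 animals (p = 0.00794 in an exact two-sided permutation, which is the lowest possible with 5 against 5). Untreated animal 1 held choroid plexus RNA, with a summed marker level of 2471 CPM against at most 47.6 CPM in the RG2833 group. Untreated animal 4 had a score of 11.5 on the first principal component of all tested genes, between the RG2833 scores of 9.18 and 25.3, while the other untreated animals scored from -27.8 to -13.8. The part of these library differences in the motor results was not tested, except where a value without an animal or with a covariate is given. In whole tissue, fewer cells of a type and less RNA per cell cannot be told apart.

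No motor gene passed the test between the groups. In edgeR's quasi-likelihood fit over the whole table, with Benjamini-Hochberg adjusted p-values and a threshold of 0.05, 0 of the 49 tested motor genes were called, against 5.08% of all 11791 tested genes (2.41% higher and 2.67% lower in RG2833 animals). At an unadjusted p under 0.05 there were 6 of 49 motor genes (12.2%), 3 higher and 3 lower in RG2833 animals, against 24.5% of all tested genes. The groups did not overlap for 2 motor genes (4.08%), against 7.27% of all tested genes. DESeq2's Wald test and limma-voom likewise called 0 motor genes, against 11.4% and 4.66% of all genes they tested.

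For most motors, as for most tested genes, the data bounded the difference between the groups to less than 2-fold. The median absolute log2 fold change was 0.146 over the tested motors and 0.156 over all tested genes. The 95% interval of the log2 fold change lay within a 1.5-fold change in either direction for 38 of the 49 genes (77.6%) and within a 2-fold change for 46 (93.9%), beside 68.5% and 91.3% of all tested genes. The exceptions to the wider bound were Kif19, Kif23 and Myo1g, each of low count. The median log2 fold change was -0.0021 over the 22 tested kinesins, -0.10 over the 12 tested dynein subunits and -0.03 over the 15 tested myosins, beside -0.0035 over all tested genes. Means were higher in RG2833 animals for 10 kinesins, 3 dynein subunits and 7 myosins, and lower for 12, 9 and 8. Without untreated animal 4, the count of called motor genes was 3 of 50 (6.00%; Kif19, Kif26a and Myo18a), where 13.1% of all tested genes were called. Without untreated animal 5 it was 1 of 49 (2.04%; Kif3c), against 7.61%. It was 0 in the other 8 fits that left out 1 animal, in which between 0.826 and 2.37% of all tested genes were called.

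**Figure D1:**
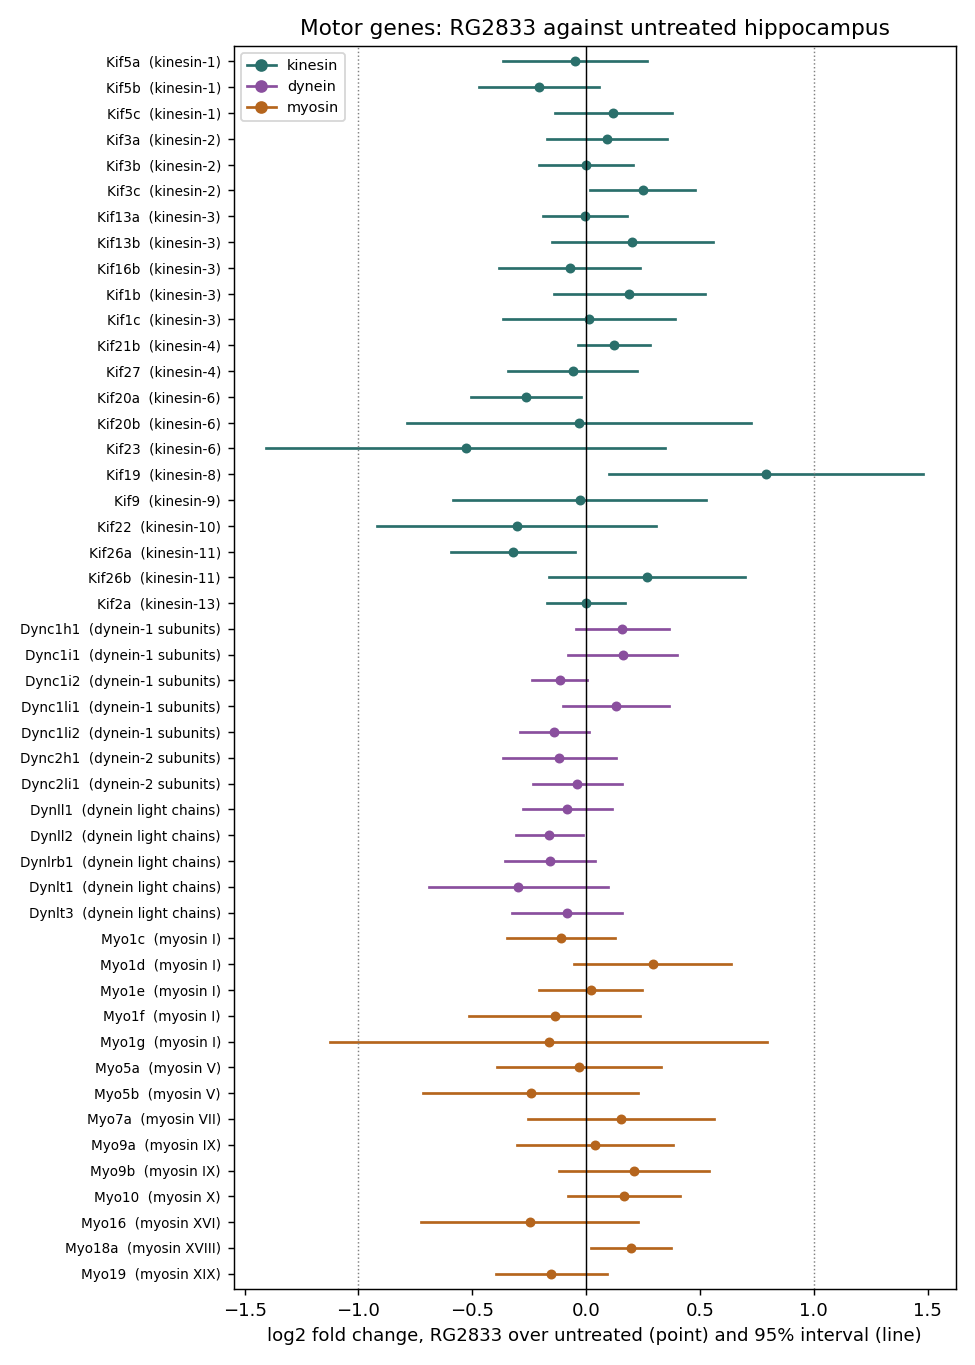
Log2 fold change of RG2833 over untreated for 48 of the 49 tested motor genes (points) with 95% intervals (lines), grouped by motor class and coloured by superfamily. The dotted lines mark a 2-fold change in either direction. Points lie between -0.53 (Kif23) and 0.79 (Kif19), and the intervals of Kif19, Kif23 and Myo1g cross the 2-fold bounds.

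The kinesin-1 family, the heavy chains that carry vesicles and mitochondria along axons, showed no called difference. Kif5a, found mainly in neurons, was at 605, 980.2, 790.3, 548 and 749.7 CPM in untreated animals 1 to 5 and at 601, 738, 661, 834 and 719 CPM in RG2833 animals 1 to 5. The untreated animals spanned the RG2833 range on both sides, with the highest value in untreated animal 2 and the lowest in untreated animal 4. The Kif5a log2 fold change was -0.05 ± 0.15 (SE; 95% interval -0.36 to 0.27; adjusted p = 0.872, edgeR). Kif5b, the broadly expressed member, was at 232, 174, 169, 202 and 138 CPM in untreated animals 1 to 5 and at 137, 169, 168, 166 and 154 CPM in RG2833 animals 1 to 5. Its groups overlapped, and the highest values were those of untreated animals 1 and 4. Kif5c, also enriched in neurons, was at 258, 319, 338, 302 and 380.2 CPM in untreated animals 1 to 5 and at 313, 321, 332, 326 and 443 CPM in RG2833 animals 1 to 5, with RG2833 animal 5 highest of all. Log2 fold changes were -0.21 ± 0.12 for Kif5b and 0.12 ± 0.12 for Kif5c (SE; adjusted p = 0.315 and 0.566, edgeR).

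Among kinesin-2 motors, which carry cargo in axons and along the ciliary axoneme, all 3 tested genes had means that were equal or higher in RG2833 animals and none was called. Kif3c, a neuronal heavy chain that pairs with KIF3A, was at 162, 164, 198, 194 and 236 CPM in untreated animals 1 to 5 and at 239.5, 210.5, 208, 221 and 253 CPM in RG2833 animals 1 to 5. RG2833 animals lay above 4 of the 5 untreated animals, and untreated animal 5 lay among them. The Kif3c log2 fold change was 0.25 ± 0.11 (SE; 95% interval 0.02 to 0.48; adjusted p = 0.173, edgeR). Without untreated animal 5 its log2 fold change was 0.34 (adjusted p = 0.0451, edgeR), and in the other fits that left out an animal it did not pass. Kif3a, the partner shared by the KIF3 motors, was at 54.2, 56.1, 68.9, 71.9 and 90.8 CPM in untreated animals 1 to 5 and at 73.2, 73.0, 72.3, 67.9 and 78.2 CPM in RG2833 animals 1 to 5. Its RG2833 values lay within the untreated range, which was wide. Kif3b, the ubiquitous partner of KIF3A, was at 79.6, 67.5, 84.0, 89.4 and 89.8 CPM in untreated animals 1 to 5 and at 79.1, 83.7, 76.2, 74.5 and 97.1 CPM in RG2833 animals 1 to 5, and its group means differed by far less than the spread between animals (0.00033 ± 0.10 on the log2 scale, SE).

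Kinesin-3 motors move synaptic vesicle precursors, dense-core vesicles and endosomes. Kif1b, whose product carries mitochondria and synaptic vesicle precursors, was at 189, 223, 231, 243 and 345 CPM in untreated animals 1 to 5 and at 258, 251, 281, 252 and 364 CPM in RG2833 animals 1 to 5. In each group animal 5 had the highest value, and the log2 fold change was 0.19 ± 0.15 (SE; 95% interval -0.14 to 0.52; adjusted p = 0.467, edgeR). The other 4 tested members were Kif1c, Kif13a, Kif13b and Kif16b, a transporter of early endosomes. Their log2 fold changes ran from -0.07 for Kif16b to 0.20 for Kif13b, which binds membrane scaffolds, and their adjusted p-values from 0.468 to 0.982 (edgeR).

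Kif21b, a neuronal kinesin-4 that regulates microtubule growth, was at 51.8, 51.3, 60.4, 53.0 and 57.0 CPM in untreated animals 1 to 5 and at 55.5, 60.9, 58.8, 56.6 and 65.9 CPM in RG2833 animals 1 to 5. The highest value belonged to RG2833 animal 5, and the groups overlapped (0.12 ± 0.07 on the log2 scale, SE; adjusted p = 0.321, edgeR). Kif27, a relative of the hedgehog regulator KIF7, had a log2 fold change of -0.06 ± 0.13. Kif2a, a kinesin-13 that depolymerizes microtubule ends and limits collateral branches of axons, was at 101, 88.7, 105, 101 and 120.4 CPM in untreated animals 1 to 5 and at 105, 98.6, 98.8, 106 and 109 CPM in RG2833 animals 1 to 5. Its difference was -0.00015 ± 0.08 on the log2 scale with a 95% interval from -0.17 to 0.17, among the narrowest of the kinesins.

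The 2 kinesin-11 members, atypical kinesins with little or no ATPase activity, had opposite signs. Kif26a, a negative regulator of GDNF signalling in enteric neurons, had the smallest p-value of all motors and was at 10.9, 10.9, 11.95, 8.66 and 12.3 CPM in untreated animals 1 to 5 and at 7.25, 8.65, 9.51, 9.31 and 8.997 CPM in RG2833 animals 1 to 5. Untreated animal 4 was low among the untreated and lay inside the RG2833 range. The Kif26a log2 fold change was -0.32 ± 0.13 (SE; 95% interval -0.59 to -0.05; adjusted p = 0.141, edgeR), and without untreated animal 4 it was -0.40 (adjusted p = 0.0489, edgeR). Kif26b was at 7.09, 9.89, 7.97, 12.1 and 11.6 CPM in untreated animals 1 to 5 and at 12.5, 11.33, 11.5, 7.55 and 15.9 CPM in RG2833 animals 1 to 5, with the lowest and the highest value of the RG2833 group in animals 4 and 5, and a log2 fold change of 0.27 ± 0.20 (SE; adjusted p = 0.426, edgeR).

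Kif19, a kinesin-8 that shortens microtubules at the tips of motile cilia, had the largest fold change of the motors. It was at 4.12, 3.10, 1.58, 4.93 and 1.48 CPM in untreated animals 1 to 5 and at 3.43, 5.08, 7.03, 5.79 and 5.02 CPM in RG2833 animals 1 to 5. Values were near or below 5 CPM in all untreated animals, lowest in untreated animals 3 and 5, and untreated animals 1 and 4 overlapped the RG2833 group. The Kif19 log2 fold change was 0.79 ± 0.32 (SE; 95% interval 0.10 to 1.48; adjusted p = 0.151, edgeR). Without untreated animal 4 it was 1.05 (adjusted p = 0.0453, edgeR). The summed ependymal markers, from the ciliated lining of the ventricles, ranged from 9.08 to 35.7 CPM in untreated and from 10.6 to 22.7 CPM in RG2833 animals (5 of 6 listed genes measured, none of them at 0 throughout). Kif19 also varied with the summed oligodendrocyte markers (r = 0.746 over 10 animals). In a fit that holds that score as a covariate, which was added once values were known, its log2 fold change was 0.68 (adjusted p = 0.0969, edgeR). Kif9, another ciliary motor, had a log2 fold change of -0.03 ± 0.26 (SE; adjusted p = 0.957, edgeR).

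Kinesins of cell division were near the detection limit, apart from Kif20a. Kif20a, which carries the passenger proteins of the spindle midzone, was at 8.92, 11.1, 8.62, 9.40 and 9.31 CPM in untreated animals 1 to 5 and at 7.35, 8.03, 8.17, 7.45 and 8.47 CPM in RG2833 animals 1 to 5. Every RG2833 animal lay below every untreated animal, by a narrow margin, and the log2 fold change was -0.26 ± 0.11 (SE; 95% interval -0.51 to -0.02; adjusted p = 0.172, edgeR). The summed markers of proliferating cells (6 of 6 measured) were between 34.7 and 47.9 CPM in untreated and between 31.5 and 35.9 CPM in RG2833 animals, and their part in the Kif20a values was not tested. The midzone motor Kif23 and its relative Kif20b, with Kif22 of chromosome arms, had between 124 and 156 counts over all 10 animals. Their log2 fold changes were -0.53 ± 0.40, -0.03 ± 0.35 and -0.31 ± 0.28 (SE), differences that were not detectable at this depth.

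**Figure D2:**
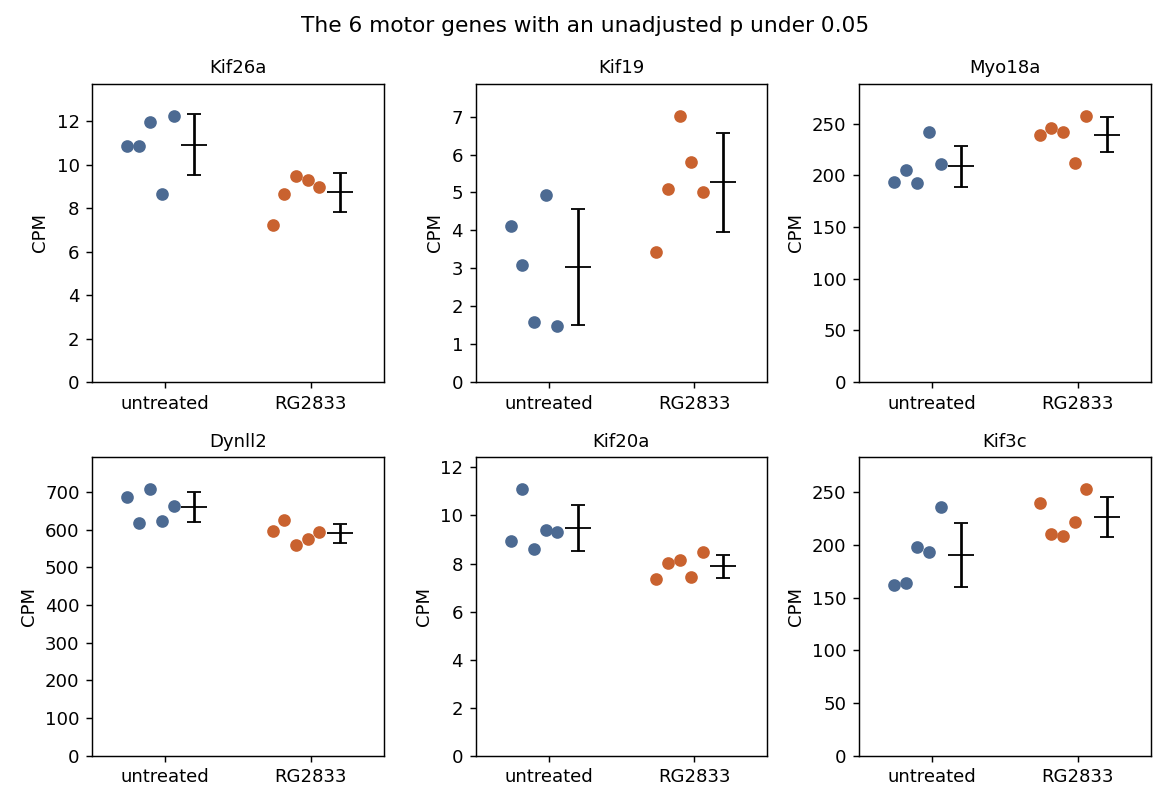
CPM (y axis, from 0) in each animal for the 6 motor genes with an unadjusted p under 0.05, with untreated animals in blue and RG2833 animals in orange. Bars give the mean and SD of 5 animals. Only Kif20a has groups that do not overlap, and none of the 6 passed the adjusted test.

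Cytoplasmic dynein-1 is built from a heavy chain, intermediate chains, light intermediate chains and light chains. Dync1h1, the heavy chain with the motor domain, was at 579, 536, 595, 644 and 728 CPM in untreated animals 1 to 5 and at 689, 644, 678, 642 and 788 CPM in RG2833 animals 1 to 5. No RG2833 animal was below 642 CPM, as untreated animals 1, 2 and 3 were, and untreated animal 5 was second only to RG2833 animal 5. The Dync1h1 log2 fold change was 0.16 ± 0.09 (SE; 95% interval -0.04 to 0.36; adjusted p = 0.311, edgeR). Dync1li2, a light intermediate chain that links dynein to cargo adaptors, was at 275, 227, 278, 260.3 and 274 CPM in untreated animals 1 to 5 and at 236, 241, 244, 244 and 227 CPM in RG2833 animals 1 to 5. The RG2833 values were tightly grouped below 4 of the 5 untreated values, and untreated animal 2 lay level with the lowest of them (log2 fold change -0.14 ± 0.07, SE; adjusted p = 0.242, edgeR). The other light intermediate chain gene, Dync1li1, had a log2 fold change of 0.13 ± 0.11.

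The 2 intermediate chain genes, which encode the scaffold that binds dynactin, had opposite signs. Dync1i1, enriched in neurons, was at 234, 149, 216, 217 and 234 CPM in untreated animals 1 to 5 and at 246, 232, 229.9, 222 and 244 CPM in RG2833 animals 1 to 5. Untreated animal 2 stood far below the other animals. Dync1i2, expressed broadly, was at 163, 157, 159.6, 162 and 158 CPM in untreated animals 1 to 5 and at 145, 154, 149.6, 146 and 143 CPM in RG2833 animals 1 to 5, and each RG2833 animal lay below each untreated animal. Neither gene was called on its own, with log2 fold changes of 0.16 ± 0.11 and -0.12 ± 0.06 (SE; adjusted p = 0.391 and 0.217, edgeR).

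Within each animal, the log2 ratio of Dync1i1 to Dync1i2 counts was 0.52, -0.08, 0.44, 0.42 and 0.57 in untreated animals 1 to 5. It was 0.75, 0.59, 0.62, 0.61 and 0.77 in RG2833 animals 1 to 5. All RG2833 animals were above all untreated animals, and the lowest value was that of untreated animal 2. The mean ratio was 0.37 ± 0.26 in untreated and 0.67 ± 0.09 in RG2833 animals (SD, n = 5 each). The difference of 0.29 had a two-sided exact permutation p of 0.00794, again the lowest possible, and an adjusted p of 0.0317 over the 4 paralog ratios tested. Without untreated animal 2 the difference was 0.18 (exact permutation p = 0.00794), and over the 10 fits that left out an animal it ran from 0.18 to 0.34. Adjusted over the 4 ratios, it passed in the 5 fits without an untreated animal (adjusted p = 0.0317 in each) and in none of the 5 without an RG2833 animal, whose exact permutation p-values were 0.0238 to 0.0317 and adjusted p-values 0.0952 to 0.127. Nor did it pass without untreated animals 1 and 4, a choice made after seeing the data (difference 0.36, exact permutation p = 0.0179, adjusted p = 0.0714). The summed excitatory neuron markers and the ribosomal RNA share separated the same animals, and their part in the ratio was not tested.

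**Figure D3:**
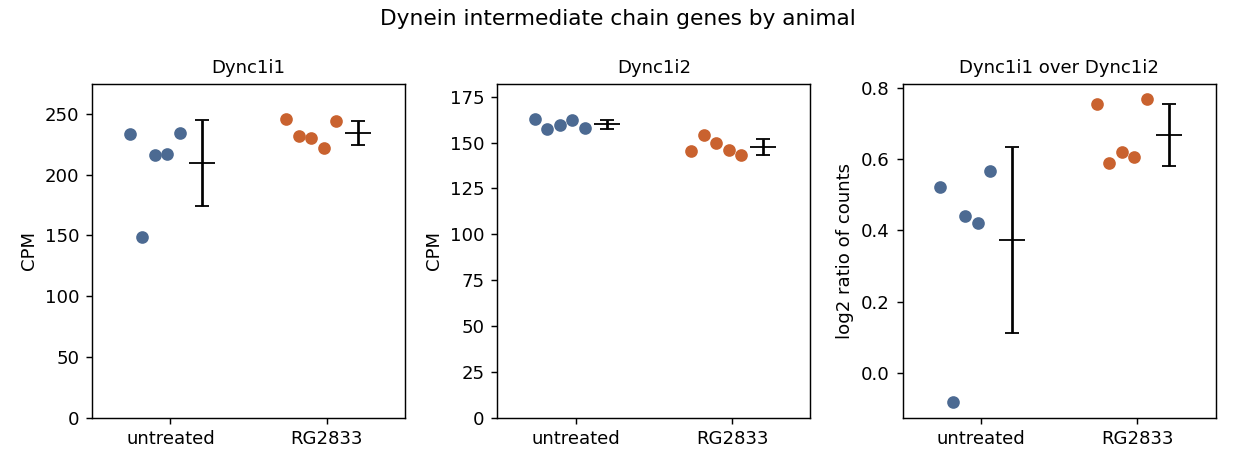
CPM of Dync1i1 and Dync1i2 in each animal (left and middle, y axes from 0) and the log2 ratio of their counts (right), untreated in blue and RG2833 in orange, with mean and SD of 5 animals. The ratio is at most 0.57 in untreated and at least 0.59 in RG2833 animals, and untreated animal 2 is lowest at -0.08.

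The other 3 ratios did not differ detectably. Kif5a over Kif5b differed by 0.16 (exact permutation p = 0.492; from 0.0094 without untreated animal 1 to 0.288 without untreated animal 2), with an SD of 0.54 among untreated and 0.13 among RG2833 animals. Dynll1 over Dynll2 differed by 0.08 on the log2 scale (exact permutation p = 0.341; from 0.026 without untreated animal 5 to 0.121 without RG2833 animal 5). Myo5a over Myo5b differed by 0.16 (exact permutation p = 0.524; from -0.019 without untreated animal 2 to 0.296 without untreated animal 3). Each of the 3 differences over all animals was within the SD of the untreated group. Kif1a and Kif21a were not analysed here, so the other 2 planned ratios have no value, and neither were Kif17 and Myo6.

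Light chains bind the intermediate chains and, in the case of the LC8 proteins, many partners outside dynein. All 5 tested light chain genes had lower means in RG2833 animals, and 0 of 5 were called, beside 50.6% of all tested genes with lower means and 5.08% called. Dynll2, an LC8 chain that also serves myosin V, was at 688, 616, 707, 623 and 664 CPM in untreated animals 1 to 5 and at 596, 625, 560.1, 575 and 593 CPM in RG2833 animals 1 to 5. RG2833 animal 2 lay within the untreated range and the other RG2833 animals lay below it. The Dynll2 log2 fold change was -0.16 ± 0.07 (SE; 95% interval -0.31 to -0.01; adjusted p = 0.168, edgeR). Dynll1, the other LC8 chain, was at 618, 539.6, 617, 519.7 and 476 CPM in untreated animals 1 to 5 and at 584, 527, 512, 522 and 471 CPM in RG2833 animals 1 to 5, with broad overlap and a log2 fold change of -0.08 ± 0.09 (SE; adjusted p = 0.607, edgeR).

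Dynlrb1, a roadblock light chain, was at 288, 277, 275, 239 and 214 CPM in untreated animals 1 to 5 and at 248, 229, 223, 249 and 210.5 CPM in RG2833 animals 1 to 5. Untreated animals 1, 2 and 3 were highest and untreated animals 4 and 5 lay among the RG2833 animals (-0.16 ± 0.09, log2, SE; adjusted p = 0.303, edgeR). Dynlt1, a Tctex-type light chain, was at 11.4, 11.7, 6.39, 7.45 and 7.83 CPM in untreated animals 1 to 5 and at 6.11, 6.69, 7.55, 8.07 and 7.95 CPM in RG2833 animals 1 to 5. Its difference of -0.30 ± 0.18 came with high values in untreated animals 1 and 2 only. The related Dynlt3 had a log2 fold change of -0.08 ± 0.11. For dynein-2, the retrograde motor of cilia, the heavy chain gene Dync2h1 and the light intermediate chain gene Dync2li1 had log2 fold changes of -0.12 ± 0.12 and -0.04 ± 0.09 (SE).

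The class V myosins pull organelles and recycling endosomes into dendritic spines. Myo5a, the main neuronal member, was at 65.3, 80.5, 93.4, 74.5 and 128 CPM in untreated animals 1 to 5 and at 80.4, 78.7, 77.1, 83.7 and 112 CPM in RG2833 animals 1 to 5. Animal 5 was highest in both groups, and the log2 fold change was -0.03 ± 0.17 (SE; 95% interval -0.39 to 0.33; adjusted p = 0.926, edgeR). Myo5b, which works with RAB11 on recycling endosomes, was between 56.9 and 123 CPM in untreated and between 61.8 and 88.8 CPM in RG2833 animals (log2 fold change -0.24 ± 0.22, SE; adjusted p = 0.521, edgeR). Myo16, a neuronal myosin that binds the WAVE regulators of actin, was at 31.3, 41.2, 42.3, 26.5 and 67.5 CPM in untreated animals 1 to 5 and at 44.3, 35.1, 29.2, 39.4 and 27.6 CPM in RG2833 animals 1 to 5. Untreated animal 5 was far above the rest, and the difference of -0.25 ± 0.22 was close to its error.

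Myo18a, an unusual myosin found at the Golgi apparatus, had the smallest p-value among the myosins and was at 194, 205, 192, 242 and 211 CPM in untreated animals 1 to 5 and at 239, 246, 242, 212 and 258 CPM in RG2833 animals 1 to 5. Untreated animal 4 lay among the RG2833 animals, and the other 4 untreated animals lay below all RG2833 animals, though close to RG2833 animal 4. The Myo18a log2 fold change was 0.20 ± 0.08 (SE; 95% interval 0.02 to 0.37; adjusted p = 0.158, edgeR). Without untreated animal 4 it was 0.26 (adjusted p = 0.0412, edgeR), and in the other 9 fits that left out an animal it did not pass. Myo10, the motor of filopodium tips, was at 46.4, 55.6, 62.5, 50.3 and 52.0 CPM in untreated animals 1 to 5 and at 47.3, 56.6, 59.5, 73.2 and 63.6 CPM in RG2833 animals 1 to 5, with RG2833 animal 4 highest and RG2833 animal 1 near the bottom (log2 fold change 0.17 ± 0.11, SE; adjusted p = 0.381, edgeR).

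The class IX myosins are motors that carry a RhoGAP domain. Myo9b was at 94.5, 92, 70.5, 112 and 70.1 CPM in untreated animals 1 to 5 and at 83.5, 105, 126, 79.97 and 113 CPM in RG2833 animals 1 to 5, with wide spread in both groups (0.21 ± 0.15, log2, SE; adjusted p = 0.416, edgeR). Its relative Myo9a had a difference of 0.04 ± 0.16. Myo19, a motor anchored to mitochondria, was at 8.58, 9.59, 10.4, 9.68 and 8.78 CPM in untreated animals 1 to 5 and at 7.63, 9.45, 8.99, 8.48 and 7.74 CPM in RG2833 animals 1 to 5, with overlap of the groups and a log2 fold change of -0.15 ± 0.11 (SE; adjusted p = 0.421, edgeR). Myo7a, known for its part in hair cells and retina, was low at between 2.04 and 3.54 CPM in all 10 animals (0.15 ± 0.19, log2, SE).

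Class I myosins link membranes to cortical actin. Myo1d was at 41.1, 25.2, 24.8, 36.3 and 28.2 CPM in untreated animals 1 to 5 and at 32.1, 30.5, 41.1, 46.0 and 40.9 CPM in RG2833 animals 1 to 5. The lowest values were those of untreated animals 2, 3 and 5, and the log2 fold change was 0.29 ± 0.16 (SE; adjusted p = 0.274, edgeR). Myo1c, Myo1e, Myo1f and Myo1g had log2 fold changes between -0.16 and 0.02 and adjusted p-values from 0.565 to 0.924 (edgeR). Myo1f and Myo1g are known mainly from leukocytes, and the summed microglial markers (7 of 7 measured) were between 409 and 664 CPM in untreated and between 406 and 518 CPM in RG2833 animals.

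The other 11 motor genes did not pass the filter on low counts. Kif12 had no count in any animal, where 3 counts correspond to 0.343 CPM in the shallowest library, and Kif2b had 1 count in all. Kif11, Kif15, Kif18a, Kif18b and Kif2c, motors of the mitotic spindle, had totals between 23 and 68 counts over the 10 animals. Myo1a, Myo3b and Myo7b, known from brush border and sensory epithelium, had between 13 and 32 counts. Dynlrb2, a light chain of cilia, had 117 counts, and its highest level was 5.15 CPM in untreated animal 1, which also held the choroid plexus RNA, against 0.278 to 1.16 CPM in the other 9 animals. It is also among the ependymal markers.

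**Figure D4:**
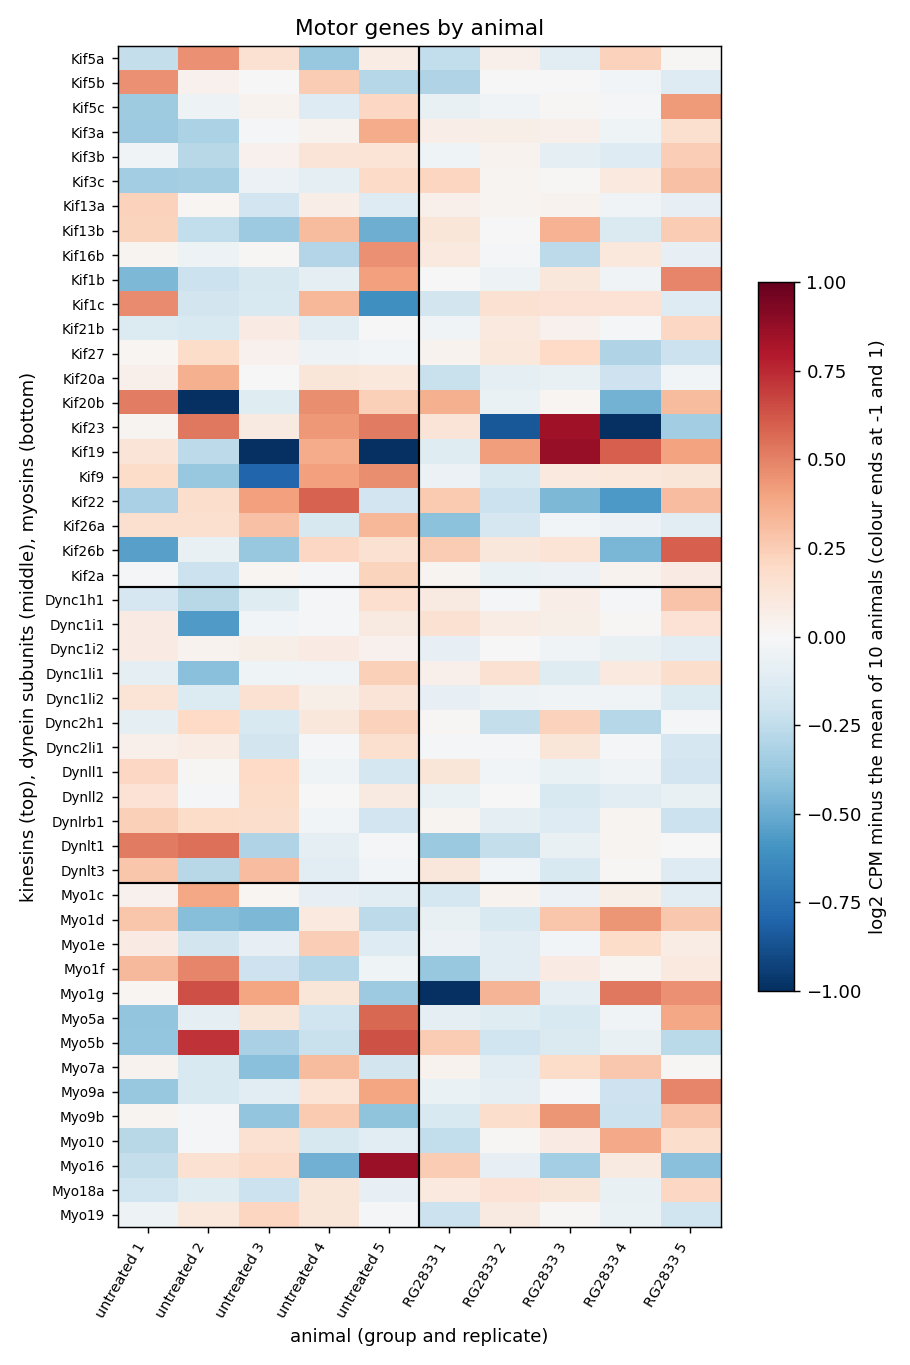
Log2 CPM of the same 48 motor genes (rows, in the order of the interval plot) in each animal (columns), as the difference from the gene's mean over 10 animals, with colours ending at -1 and 1. The vertical line separates untreated from RG2833 animals and horizontal lines separate the superfamilies. Dync1i2 and Kif20a have groups that do not overlap, and the strongest colours belong to motors of low count such as Kif23, Kif20b and Myo1g.

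Spread between animals differed widely among the motors. The SD of log2 CPM within groups was largest for Myo1g (0.81), Kif23 (0.63), Kif19 (0.58) and Kif20b (0.57), which have low counts. Among more abundant transcripts, Myo16 and Myo5b each had 0.41, Kif1c 0.33 and Myo5a 0.30. Kif1c, a kinesin-3 of vesicles and RNA, was at 467, 296, 302, 424 and 219.9 CPM in untreated animals 1 to 5 and at 296, 374, 372, 372 and 308 CPM in RG2833 animals 1 to 5. Its untreated values differed by more than the RG2833 values, with animals 1 and 4 high and animal 5 low, and the group means were alike (0.01 ± 0.17, log2, SE).

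The summed oligodendrocyte markers (6 of 6 measured, Mbp, Mog and Mag among them) followed a like order. Their sum ranged from 5679 to 17658 CPM in the untreated group and from 9002 to 12182 CPM in the RG2833 group (two-sided exact permutation p = 0.865 for the group difference). The relation of each of the 49 tested motors to this sum was examined over the 10 animals on a log2 scale. Since the comparison was chosen after the values of Kif1c had been seen, the coefficients are given as a description with no test. For Kif1c, Pearson's r was 0.917 and Spearman's rho 0.915 (n = 10), and without untreated animals 1 and 5, the farthest from the median of the sum, r was 0.84.

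The next highest values of r were those of Myo1d (r = 0.803, rho = 0.77), Kif13a (r = 0.801, rho = 0.782) and Kif13b (r = 0.79, rho = 0.782), and the most negative were those of Myo5a (r = -0.731, rho = -0.83) and Myo16 (r = -0.715, rho = -0.782). Kif19 had r = 0.746 and rho = 0.697. Without the same 2 animals r was 0.856 for Kif19, 0.914 for Myo7a (0.724 over all animals), 0.886 for Kif9 (0.401 over all animals), 0.842 for Myo1d, 0.558 for Kif13a, 0.749 for Kif13b, -0.382 for Myo5a and -0.622 for Myo16. Over the 5 RG2833 animals alone, whose sums span a narrower range, r was 0.77 for Kif1c, 0.832 for Kif19 and 0.635 for Myo1d but 0.149 for Kif13a and -0.016 for Kif13b, and it was -0.466 for Myo5a and -0.154 for Myo16. All values of an animal share its library and its scaling to a common total. With the oligodendrocyte score as a covariate, also chosen after seeing the data, 0 motor genes were called between the groups, against 5.15% of all tested genes.

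**Figure D5:**
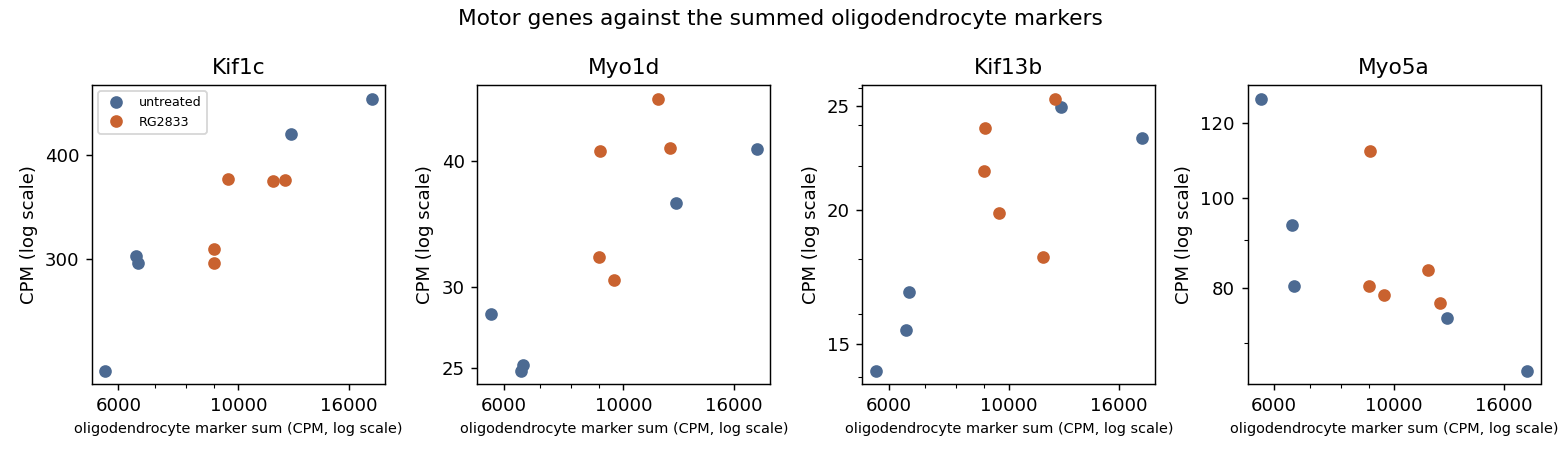
CPM of Kif1c, Myo1d, Kif13b and Myo5a (y axes, log scale) against the summed oligodendrocyte markers (x axes, CPM, log scale) in 10 animals, untreated in blue and RG2833 in orange. Over all animals Kif1c, Myo1d and Kif13b are higher and Myo5a is lower where the marker sum is higher. Both ends of the x axis are untreated animals, and within the RG2833 animals Kif13b shows no such order (r = -0.016).

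Partners of the motors were read from 7 lists of adaptors and regulators, of which 78 genes could be tested. Of these, 1 was called (1.28%, against 5.08% of all tested genes) and 20 had an unadjusted p under 0.05 (25.6%, against 24.5%), 13 higher and 7 lower. Actr10, a subunit of the pointed end of dynactin, the cofactor that makes dynein processive, was the called gene. It was at 90.9, 84.1, 88.8, 83.3 and 87.5 CPM in untreated animals 1 to 5 and at 76.6, 73.5, 73.2, 78.3 and 69.4 CPM in RG2833 animals 1 to 5, so that all RG2833 animals were below all untreated animals. The Actr10 log2 fold change was -0.23 ± 0.06 (SE; 95% interval -0.36 to -0.10; adjusted p = 0.0475, edgeR). When animals were left out in turn, Actr10 passed in 1 of 10 fits, the fit without untreated animal 4. It did not pass with the ribosomal RNA, excitatory neuron, choroid plexus or oligodendrocyte covariate. The second dynactin gene in order of p was Capzb, a barbed-end capping subunit, at 306 ± 27.0 CPM in the untreated group and 368 ± 25.4 CPM in the RG2833 group (SD, n = 5 each), with a log2 fold change of 0.27 ± 0.08 (SE; adjusted p = 0.0708, edgeR). Over the 12 dynactin genes, 6 means were higher and 6 lower, with a median log2 fold change of 0.00027.

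Among kinesin light chains and cargo adaptors, 0 of 23 tested genes were called, and 20 had higher means in RG2833 animals (87%, against 49.4% of all tested genes), with a median log2 fold change of 0.07 beside -0.0035 over all tested genes. An unadjusted p under 0.05 was reached by 7 of the 23 (30.4%), each with the higher mean in RG2833 animals, against 11.8% of all tested genes with such a p and a higher mean. The sum of the excitatory neuron markers was also higher in RG2833 animals (5033 to 7432 against 7453 to 8067 CPM), and its part in these values was not tested. Ppfia3, liprin-α3, a synaptic scaffold that binds KIF1A, was at 208, 234, 241, 222 and 245 CPM in untreated animals 1 to 5 and at 274, 261, 263, 280.3 and 305 CPM in RG2833 animals 1 to 5. All RG2833 animals were above all untreated animals, yet the adjusted p lay just over the threshold (0.27 ± 0.07, log2, SE; adjusted p = 0.0505, edgeR). Fez2, related to the kinesin adaptor FEZ1, was 23.1 ± 2.09 CPM in the untreated group and 29.0 ± 2.86 CPM in the RG2833 group (SD, n = 5 each), a log2 fold change of 0.33 ± 0.09 (SE; adjusted p = 0.0634, edgeR).

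The remaining lists had 0 called genes each. Of the kinesins with other symbols, Kifc3, a minus-end-directed kinesin, was 68.3 ± 2.002 CPM in the untreated group and 79.1 ± 3.08 CPM in the RG2833 group (SD, n = 5 each), with no overlap of the groups (0.21 ± 0.06, log2, SE; adjusted p = 0.0515, edgeR). Kifc1, a spindle motor, differed by 0.46 ± 0.22. In conventional myosin II, Rock1, a kinase upstream of the myosin light chain, was 78.0 ± 11.6 CPM in the untreated group and 57.2 ± 8.79 CPM in the RG2833 group (SD, n = 5 each) (-0.45 ± 0.12, log2, SE; adjusted p = 0.0542, edgeR). The light chain gene Myl12a differed by -0.47 ± 0.15 (adjusted p = 0.0771, edgeR).

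Among dynein regulators, Hap1, which joins huntingtin to dynactin and kinesin, was at 158, 271, 247, 118 and 331 CPM in untreated animals 1 to 5 and at 162, 124, 122, 148 and 139 CPM in RG2833 animals 1 to 5. Untreated animals 1 and 4 lay within or below the RG2833 range and the others far above it (-0.69 ± 0.23, log2, SE; adjusted p = 0.0895, edgeR). Bicd2, an activating adaptor of dynein, differed by 0.15 ± 0.07 (adjusted p = 0.206, edgeR). Of the myosin adaptors, Myrip, which couples RAB27A to myosins, differed by 0.33 ± 0.12, and Gipc1, an adaptor of myosin VI, by 0.21 ± 0.08 (adjusted p = 0.122 and 0.136, edgeR). In the list of axonemal dynein and motile cilia, Dnai1, an outer arm intermediate chain, was 3.07 ± 0.565 CPM in the untreated group and 1.89 ± 0.367 CPM in the RG2833 group (SD, n = 5 each) (-0.70 ± 0.20, log2, SE; adjusted p = 0.0655, edgeR), and Ccdc39, a ruler of the axoneme, differed by -0.17 ± 0.11.

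CPM are not divided by transcript length, so levels were compared between groups and not between genes. The GRCr8 gene table of RefSeq names copies or pseudogenes for 7 members, among them Dynll1, Dynlt1, Kif1c and Kif13a, and whether reads were shared with such copies was not tested.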

How the data were processed

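RNA of the left hippocampus of 10 rats, 5 per group, was sequenced from stranded mRNA libraries, per the labels' protocols. The expected counts per gene were deposited by the authors without normalization. A second table deposited by the authors holds a normalized signal, CPM after TMM scaling per its file name, and was used for alternatives only. The submitters' processing notes name bcl2fastq 2.17, Bowtie2 2.1.0, RSEM 1.2.15, edgeR and the build rn6, with no role or order. Expected counts were rounded, low genes were removed with filterByExpr, and groups were compared over 11791 genes by quasi-likelihood in edgeR (version 4.0.16, under R 4.3.3, with TMM scaling, no covariate, Benjamini-Hochberg adjustment, threshold 0.05). DESeq2 1.42.0, limma 3.58.1, other scalings, filters, covariates, a replicate block and fits without each animal were alternatives. The standard error is the log2 fold change over the square root of F, and intervals use its t distribution. Ratios and log2 CPM used a prior count of 2. Total counts of 8764266 to 11311673 per animal put 3 counts at 0.268 to 0.343 CPM, which covers counting error only. Within-group pairs of libraries differed beyond sampling noise (chi-square per degree of freedom 4.60 to 36.3), which cannot by itself show that they are separate animals. Each library was counted as 1 animal, and that groups hold separate animals comes from the labels.

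The members, lists and tests were chosen with earlier results of these data known. Values in every animal are given for the 20 motors with the smallest p and for a list of well-known neuronal motors, except 1 motor gene that is counted with the rest and not reported here. Partner genes named were those called and the 2 with the smallest p in each list. The values by animal of Kif1c, and the relations to oligodendrocyte markers, were added after values were seen. Paralog ratios were adjusted over the 4 computed and not the 6 planned. Replicate numbers name different animals. Over all tested genes, same-numbered animals did not deviate together (mean correlation -0.07), so the main test has no pairing. Among the motors, however, both animals numbered 5 were highest of their group for Kif1b, Kif5c, Myo5a, Myo9a, Dync1h1, Kif2a, Kif3a, Kif3b and Kif3c. For Myo16, untreated animal 5 was the highest and RG2833 animal 5 the lowest of its group. The cause of this likeness was not tested.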

Additional observations from a re-analysis of the deposited data

Results flagged for a closer look

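Among 108 groups of 5 values (each tested motor gene, the 4 paralog ratios and the ribosomal RNA share, in both groups), 7 had an extreme animal by Dixon's gap criterion (95% limit 0.71 for groups of 5). About 5.4 would arise by chance. RG2833 animal 5 stood high for 4 motors that are known for work in neurons or in many tissues. It had 443 CPM of Kif5c against 313 to 332 CPM in the other RG2833 animals, 364 CPM of Kif1b against 251 to 281 CPM, 112 CPM of Myo5a against 77.1 to 83.7 CPM and 44.0 CPM of Myo9a against 27.1 to 30.9 CPM.

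Untreated animal 2 gave the other 3 values. It had 149 CPM of Dync1i1 where its group otherwise ranged from 216 to 234 CPM, and with it a log2 ratio of Dync1i1 to Dync1i2 of -0.083 against 0.42 to 0.57. It also had 22.0 CPM of Myo1c against 15.5 to 17.3 CPM.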

How the results depend on the processing

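The count of called motor genes stayed at 0 under both other scalings, both filters, limma-voom, the Wald test of DESeq2, limma trend fits to the deposited values, the replicate block, the ribosomal RNA, choroid plexus, excitatory neuron and oligodendrocyte covariates and an adjusted p under 0.1. Over all tested genes, the ribosomal RNA covariate left 2 calls, the excitatory neuron covariate 3, the block 180 and the choroid plexus covariate 251, so a 0 there says little of motors, while DESeq2 made 1295 and an adjusted p under 0.1 gave 1466. Without untreated replicates 1 and 4, chosen after seeing the data, the motor count was 3 of 50 (Kif13b, Kif19 and Myo1d; 6.00% against 11.6% of all tested genes). These 2 animals had the highest oligodendrocyte marker sums of their group, and the sums left, 5679 to 6530 CPM, do not overlap the 9002 to 12182 CPM of the RG2833 group, so in that fit the diet and these sums cannot be told apart. Over the 10 fits that left out an animal the motor count ran from 0 to 3. Of 1218 values of single motor genes under 25 alternatives, 7 passed the threshold, all in fits with animals left out, 115 changed sign without passing and 0 changed sign past it. The count of called partner genes, 1 in the main test, was 0 with no filter and with the ribosomal RNA or excitatory neuron covariate, 2 with a mean count of at least 50 (2.90%, against 6.28% of all tested genes) and with limma trend at either pseudocount (2.56%, against 5.16 and 4.89%), 3 with the oligodendrocyte covariate (Fez2, Myrip and Ppfia3; 3.85%, against 5.15%), 6 without untreated replicates 1 and 4 (7.69%, against 11.6%), 10 with DESeq2 (12.8%, against 11.4% of all tested genes) and 11 at an adjusted p under 0.1 (14.1%, against 12.4%). With the choroid plexus covariate the 1 call was Foxj1, and Actr10 was among neither the 3 nor the 6. The partner count ran from 0 to 7 over the fits that left out an animal, with the 7 (8.97%, against 13.1% of all tested genes) in the fit without untreated replicate 4. The median log2 fold change of kinesins was -0.13 with the ribosomal RNA covariate, and that of myosins was 0.11 with the excitatory neuron covariate and -0.16 without untreated replicates 1 and 4. The causes of these shifts were not tested. The other medians computed moved by less than the larger of both groups' SDs of per-animal scores (0.096 for kinesins, 0.065 for dynein subunits and 0.12 for myosins), and no median was computed with DESeq2. The dynein median ran from -0.12 to -0.056. The Kif5a to Kif5b ratio difference was -0.23 without untreated replicates 1 and 4 (exact permutation p = 0.0536), and the Myo5a to Myo5b difference ran from -0.019 to 0.296 over the fits that left out an animal. With the replicate block, that is with labels exchanged within same-numbered pairs, the Dync1i1 to Dync1i2 difference of 0.29 and the ribosomal RNA difference of -2.26 percentage points each had an exact permutation p of 0.0625, the smallest that 5 pairs allow (0.25 for the ratio when adjusted over 4). The block on the counts called 0 motor genes and 1 partner gene, Rock1 in place of Actr10. Over all tested genes, correlations of same-numbered animals ran from -0.319 to 0.151, and 1 of the 5 untreated animals correlated best with its own number. Motors with few counts, such as Kif23, Kif22, Kif20b and Myo1g, could show only large differences at this depth.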

Other observations

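Summed markers of the other cell types were as follows, as ranges over 5 untreated and 5 RG2833 animals. Pan-neuronal markers (7 of 7 measured) were between 4838 and 7558 CPM in untreated and between 6896 and 8510 CPM in RG2833 animals. Inhibitory neuron markers were between 428 and 805 CPM and between 449 and 607 CPM. Astrocyte markers were between 3232 and 5046 CPM and between 3579 and 4875 CPM. Vascular markers were between 253 and 366 CPM and between 236 and 273 CPM, and markers of oligodendrocyte precursors between 281 and 300 CPM and between 226 and 296 CPM. These groups overlapped in each list.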
